A study of Spinacia oleracea with 24 samples.

Results

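Heat shock protein genes were followed in spinach leaves over a day at high and low nitrogen. A gene was taken when the Swiss-Prot name given for it in the deposited table contained "heat shock", and heat stress transcription factors and heat shock factor proteins were left out. Of 25494 genes in the table, 85 carried such a name, and 47 of these reached 1 FPKM (fragments per kilobase of gene length, scaled for library size) in at least 3 of 24 libraries. By name, 19 of the 47 were small heat shock proteins, 21 belonged to the 70 kDa class, 6 to the 90 kDa class, and 1 was a heat shock factor-binding protein. The name placed 10 in the chloroplast and 4 in the mitochondrion, and gave no compartment for 33. Of the other 38 genes, 21 were at 0 in all 24 libraries and 17 were above 0 but below the level required. The member nearest the limit was Spo07688, whose third-highest library was at 1.46 FPKM, and the nearest gene left out was Spo17888 at 0.922 FPKM. Because a gene could enter through 1 group in which it was high, counts over the 47 genes describe these genes and not all genes of the families.

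Heat shock proteins are chaperones that keep other proteins from clumping and help them fold. Small heat shock proteins hold unfolding proteins without using ATP, the 70 kDa chaperones bind and release them in cycles of ATP hydrolysis with J-domain partners and nucleotide exchange factors, and the 90 kDa chaperones act late in the folding of selected client proteins. Some members of each family are present in unstressed leaves, and others are induced by heat and other stress through heat stress transcription factors.

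The leaves came from 48-day-old spinach (Spinacia oleracea, cultivar Space) grown without soil on turface at 8 h of light per day, with 200 ppm nitrogen (HN) or 50 ppm nitrogen (LN). Samples were taken from 3 plants for each of the 8 combinations at the end of the dark period (called dawn here), in the middle of the light period (midday), at the end of light (dusk) and in the middle of dark (midnight), with no heat treatment named in the labels. No other genotype or agent was used, and the times of day were sampled within 1 day. Every value below is a level in FPKM, or a difference of log2(FPKM + 1) with its standard error, and "passed the test" means a Benjamini-Hochberg adjusted p under 0.05 over 18110 genes in limma's moderated test. The difference of log2(FPKM + 1) understates the change of genes near 0.

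The 24 libraries held 18369094 to 25252705 fragments. The evening-phased clock gene GIGANTEA and the morning-phased LHY followed the labelled times, with LHY at 903 to 1776 FPKM at dawn and at most 25.2 FPKM at dusk. The leaf markers were abundant, with summed chlorophyll a-b binding transcripts at 3799 to 91340 FPKM per library, while the summed root markers, of which 1 of 5 reached the level for testing and 1 of 5 was at 0 throughout, were at 5.64 to 21.0 FPKM. The mean Spearman coefficient of a library with the other libraries of its group had a median of 0.950 over the 24 libraries and was lowest for LN dusk replicate 3, at 0.900. Replicates of heat shock protein genes spread more than those of other genes, with a median within-group SD of 0.45 on the log2 scale against 0.31 over all genes tested. The spread was 0.50 for the small class, 0.40 for the 70 kDa class and 0.40 for the 90 kDa class.

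A few genes made up most of the heat shock protein transcripts. The summed level of the 47 genes was 2134 ± 123 FPKM (SD, n = 3) at dawn in HN and 3511 ± 455 FPKM in LN. At midnight it was 1994 ± 223 FPKM in HN and 2258 ± 267 FPKM in LN. The sums in light overlapped between nitrogen levels, at 2234 to 4095 FPKM in HN and 2765 to 3941 FPKM in LN at midday, and at 2618 to 3788 FPKM in HN and 2553 to 5308 FPKM in LN at dusk. The 3 most abundant genes gave 63.8% of the sum. These were Spo12685, named SCE70 after a spinach chaperone of the chloroplast envelope, with a mean of 884 FPKM over all libraries, Spo21597 (HSC80, a 90 kDa chaperone) at 618 FPKM, and Spo03949 (HSP70-6, a chloroplast 70 kDa chaperone) at 346 FPKM. Spo21597 ranged from 375 to 895 FPKM and Spo03949 from 192 to 660 FPKM, and neither passed any of the 12 tests. In all, 29 of the 47 genes were at 1 FPKM or more in every library, 8 were so in 3 to 12 libraries, and 15 passed no test.

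**Figure D1:**
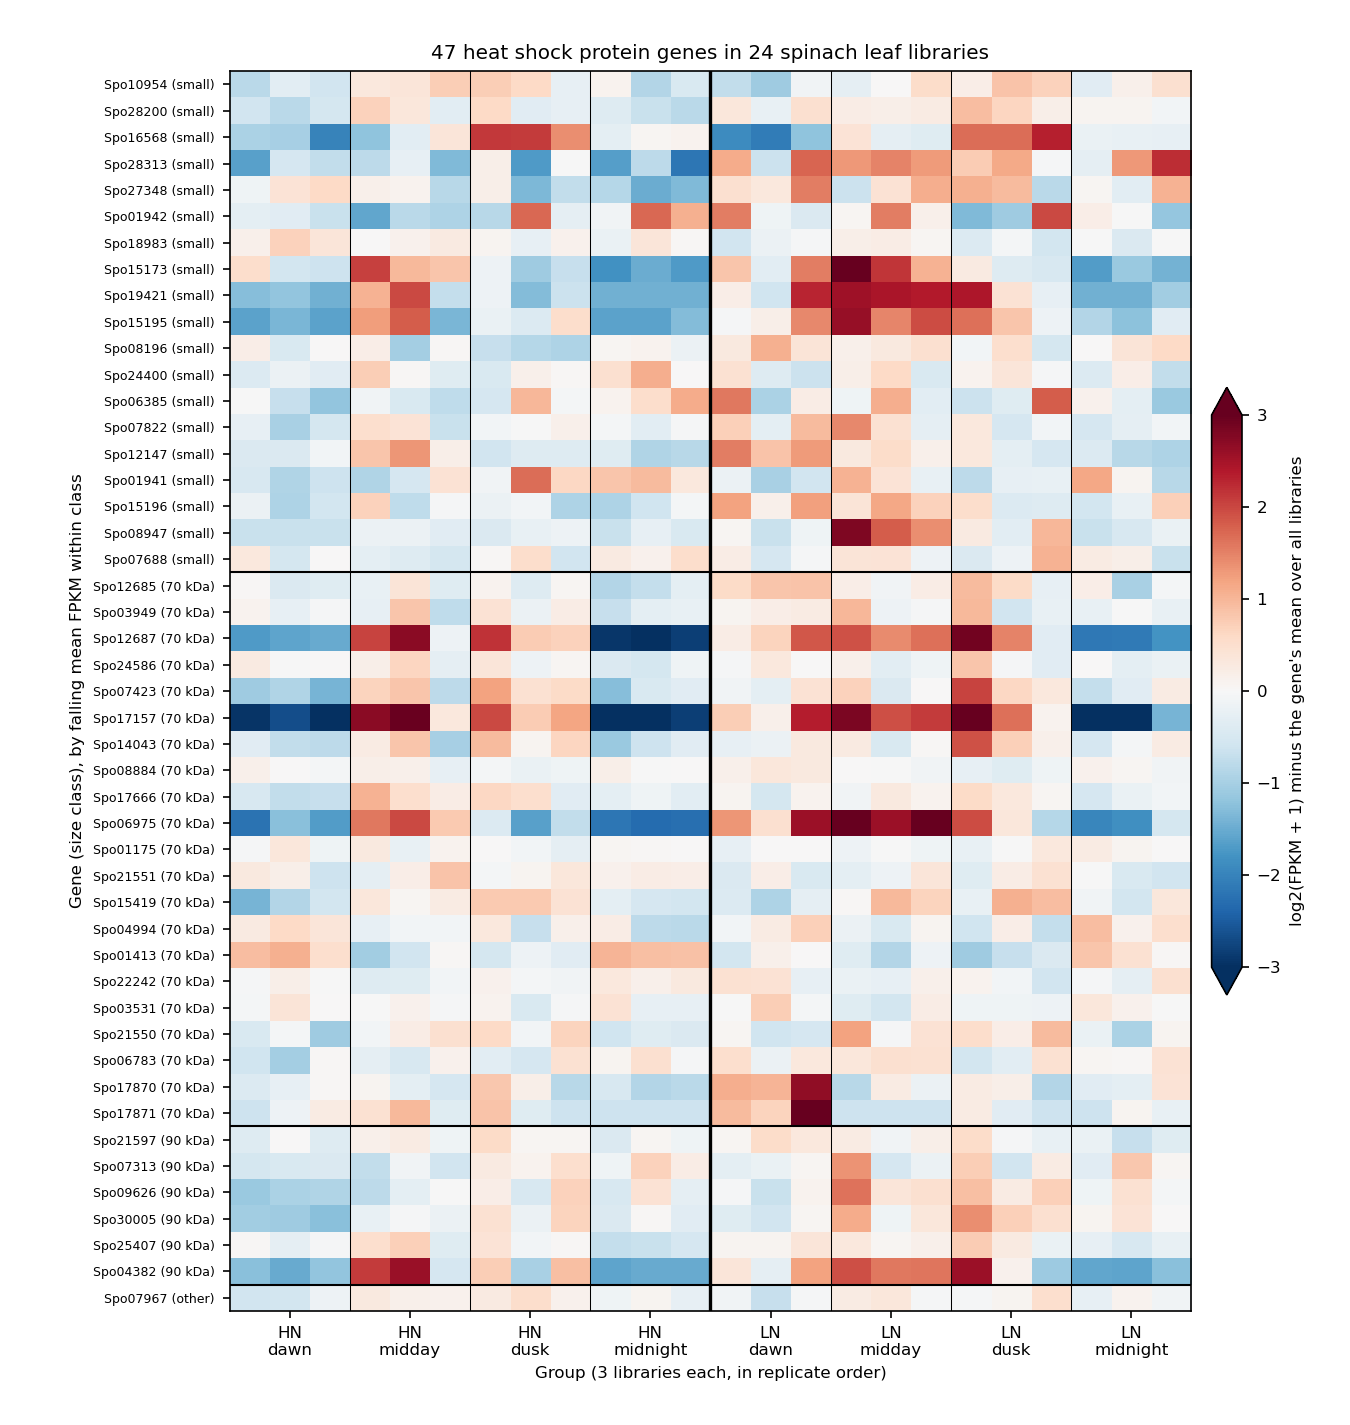
Level of each of the 47 heat shock protein genes (rows, by size class and falling mean FPKM) in each of the 24 libraries (columns, 3 per group), as log2(FPKM + 1) minus the gene's mean. Most rows are pale. Rows such as Spo17157 and Spo12687 are red in most light libraries and blue at midnight, with dawn blue in HN and pale to red in LN. Spo06975 is similar, but only its midday libraries are red in HN, where dusk is pale to blue.

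The daily course was tested over the 4 times within each nitrogen level. In HN 19 of the 47 genes changed with time of day, against a background of 38.9% of all genes tested, so that the share of 40.4% was near that of other genes. In LN 18 of the 47 changed, or 38.3%, against a background of 28.7%. At both nitrogen levels 13 genes changed, an overlap that was not counted over all genes. Among the 19 in HN, 12 had their highest mean at midday, 6 at dusk, 1 at midnight and none at dawn. Among the 18 in LN, 8 had it at midday, 5 at dusk, 4 at dawn and 1 at midnight.

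At midday, several 70 kDa and small chaperones were above their level at midnight at both nitrogen levels. In HN 12 of 47 genes were higher and 1 was lower, or 25.5% higher against a background of 12.5%, with 23.7% of all genes passing in either direction. In LN 9 were higher and none was lower, or 19.1% against a background of 4.32% higher and 3.34% lower, with 7.66% of all genes passing in either direction. The median difference of the 47 genes was 0.35 in HN and 0.32 in LN, against medians over all genes that were within 0.01 of 0. Of these genes, 8 were higher at both nitrogen levels, among them 3 of the 70 kDa class, 4 small ones and 1 of the 90 kDa class. How many of all genes were higher at both was not counted. When all libraries were scaled to 1 sum of FPKM, which moved the median of all genes by -0.34 in HN and by -0.22 in LN, the HN split became 8 higher against 5 lower, and for LN it became 9 against 1.

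**Figure D2:**
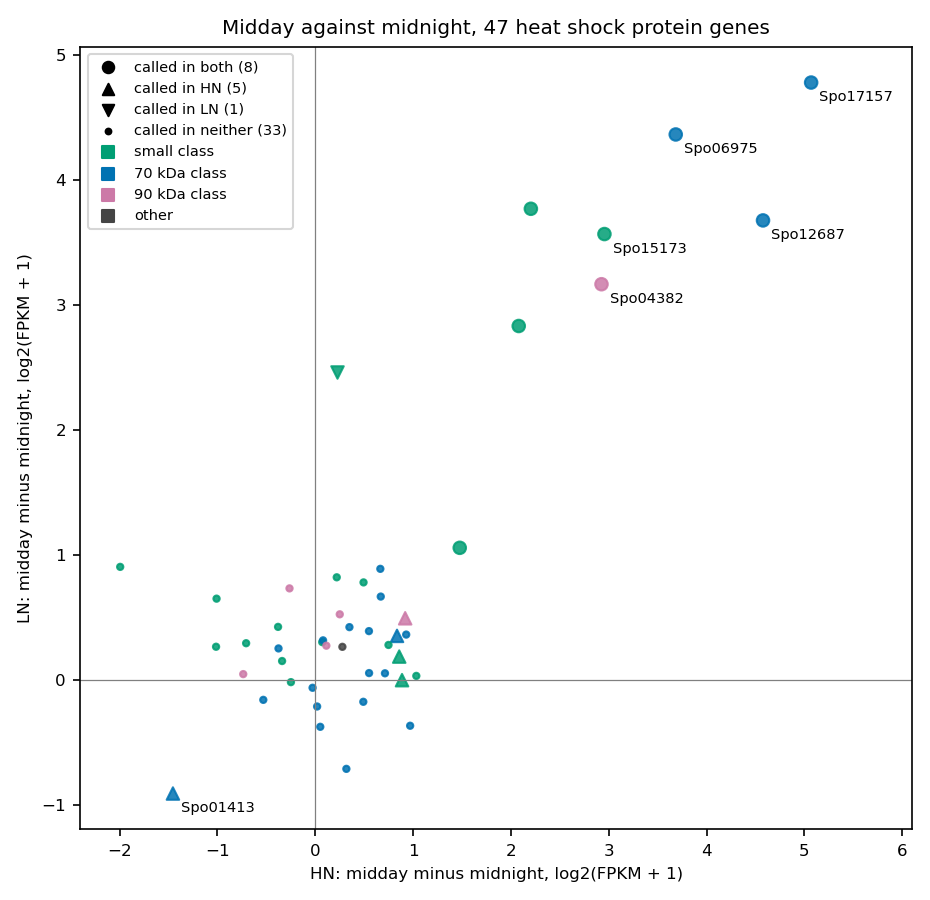
Difference between midday and midnight in log2(FPKM + 1), in HN (x axis) and in LN (y axis), for the 47 heat shock protein genes, coloured by size class, with marker shape giving where the difference passed the test. The 8 genes that passed at both nitrogen levels lie to the upper right, led by Spo17157 at 5.07 in HN and 4.78 in LN, and most other genes lie near 0.

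Of the 70 kDa class, Spo17157 had the largest of these differences. It is named after Arabidopsis HSP70-4, a 70 kDa chaperone of the cytosol, and lies on chromosome 1 at 19616936 to 19620365 on the plus strand in the coordinates of the table, whose genome build no source used here names. In HN its 3 libraries were at 0.635, 0.975 and 0.534 FPKM at dawn, at 80.8, 95.9 and 14.6 at midday, at 48.5, 20.3 and 27.4 at dusk, and at 0.250, 0.499 and 0.750 at midnight. In LN they were at 19.8, 12.9 and 63.0 FPKM at dawn, at 86.9, 47.00 and 52.8 at midday, at 135, 38.0 and 12.5 at dusk, and at 0.490, 0.551 and 3.77 at midnight. Every light library was above every midnight library at both nitrogen levels, and the ranges of HN and LN were apart at dawn and overlapped at the other times. Midday minus midnight was 5.07 ± 0.73 in HN (adjusted p = 0.000115) and 4.78 ± 0.73 in LN (adjusted p = 0.000501) in limma's test. Dusk minus dawn passed in HN at 4.19 ± 0.73 (adjusted p = 0.000247), while in LN, where dawn was already high, it was 0.65 ± 0.73 (adjusted p = 0.545).

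The more abundant Spo12687, named after the tomato cognate 70 kDa protein HSC-2, had a similar order of levels. It lies on scaffold SpoScf_00929 at 185709 to 188944, the scaffold that also holds the SCE70 gene. In HN it was at 29.9, 32.5 and 34.3 FPKM at dawn, 410, 654 and 89.1 at midday, 446, 169 and 161 at dusk, and 12.3, 8.44 and 13.1 at midnight. In LN it was at 116, 158 and 362 FPKM at dawn, 376, 267 and 313 at midday, 741, 278 and 78.5 at dusk, and 21.8, 21.9 and 28.1 at midnight. The mean was 34.0-fold higher at midday than at midnight in HN and 13.3-fold higher in LN. As differences these were 4.58 ± 0.67 (adjusted p = 0.000125) and 3.67 ± 0.67 (adjusted p = 0.00221) in limma's test, and the ranges did not overlap at either nitrogen level.

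A further cognate 70 kDa gene, Spo06975, was narrower in time. In HN it was at 0.0940, 1.11 and 0.592 FPKM at dawn, 14.1, 18.8 and 7.67 at midday, 2.82, 0.629 and 2.04 at dusk, and 0.127, 0.0239 and 0.0585 at midnight. In LN the libraries were at 11.6, 6.02 and 29.0 FPKM at dawn, 43.3, 28.9 and 42.1 at midday, 18.5, 5.37 and 1.78 at dusk, and 0.308, 0.422 and 2.53 at midnight. Midday was the highest time at both nitrogen levels, and its LN libraries were all above its HN libraries. The difference from midnight was 3.69 ± 0.58 in HN (adjusted p = 0.000250) and 4.36 ± 0.58 in LN (adjusted p = 0.000112).

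Further 70 kDa genes had smaller differences than these. The mitochondrial 70 kDa gene Spo07423 was at 13.8 ± 2.50 FPKM (SD, n = 3) at dawn and 54.0 ± 16.2 FPKM at dusk in HN, a difference of 1.86 ± 0.45 (adjusted p = 0.00331). Spo17666, one of 2 genes named after HSP70-17, was at 9.97 ± 0.798 FPKM at midnight and 19.1 ± 5.89 at midday in HN, a difference of 0.84 ± 0.24 (adjusted p = 0.0182) that no longer passed with a common sum of FPKM. The second gene of that name, Spo01413, for which the table lists no protein domain, went the other way. It was at 12.7, 11.6 and 11.4 FPKM at midnight and 2.30, 3.55 and 5.98 at midday in HN, and its ranges did not overlap. Its difference was -1.46 ± 0.28 (adjusted p = 0.00111), and from dawn to dusk in HN it fell by 1.17 on the log2 scale (adjusted p = 0.00316). Spo08884, named after HSP70-16, had the smallest spread within groups of the 47, at 12.3 to 20.6 FPKM in all libraries, and was lower at dusk than at dawn in LN by a difference of -0.51 ± 0.13 (adjusted p = 0.00733). That call was lost with an adjusted p of 0.14 when the LN groups alone were fitted.

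Of the 90 kDa class, HSP83 (Spo04382) was nearly silent at midnight. Its libraries at midnight were at 0, 0.0471 and 0.0461 FPKM in HN and 0.0176, 0 and 0.259 in LN, which correspond to 0 to 18 fragments. At midday they were at 11.7, 17.1 and 1.10 FPKM in HN and 10.4, 7.93 and 8.02 in LN, above midnight in every library. The difference was 2.93 ± 0.75 in HN (adjusted p = 0.00804) and 3.16 ± 0.75 in LN (adjusted p = 0.0135), sizes that depend on the 1 FPKM added before the logarithm, and with voom on recovered fragments the adjusted p was 0.14 and 0.18.

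Of the 90 kDa genes named for organelles, HSP90-6 rose between dawn and dusk at both nitrogen levels. HSP90-6 (Spo30005), a mitochondrial chaperone on chromosome 2 at 40583836 to 40589763 on the minus strand, was at 11.00, 10.8 and 9.45 FPKM at dawn and 33.0, 21.1 and 38.6 at dusk in HN, and at 18.4, 15.7 and 24.6 against 64.0, 40.03 and 33.8 in LN. The difference was 1.45 ± 0.28 in HN (adjusted p = 0.000599) and 1.16 ± 0.28 in LN (adjusted p = 0.00451), with no overlap in either. The chloroplast chaperone gene HSP90-5 (Spo09626) rose in HN from 13.3 ± 1.06 to 31.9 ± 12.9 FPKM (difference 1.13 ± 0.34, adjusted p = 0.0164). A second gene of that name, Spo07313, did not pass any test, at 51.7 to 223 FPKM. The class by name also holds Spo25407, similar to an activator of the 90 kDa ATPase described in mouse, which went from 11.6 ± 1.04 FPKM at midnight to 23.9 ± 8.81 at midday in HN (difference 0.92 ± 0.24, adjusted p = 0.00958, lost with a common sum at an adjusted p of 0.11). Spo07967, similar to a protein that binds heat stress factors and dampens them in Arabidopsis, rose in HN from 64.6 ± 11.4 FPKM at dawn to 108 ± 15.5 at dusk (difference 0.73 ± 0.19, adjusted p = 0.00643).

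Dusk against dawn passed in more of the 47 genes in HN than in LN, as it did over all genes. In HN 13 genes were higher and 1 was lower, or 27.7% higher against a background of 15.7%. In either direction 29.8% of the 47 passed, against 32.7% of all genes. The LN calls were 4 up and 4 down, each 8.51% of the 47, against backgrounds of 12.2% and 13.8%. In either direction 17% of the 47 passed in LN, against 26.0% of all genes. When the LN groups were fitted alone, 2 of the 8 remained. Spo12687 and Spo17157 were among the genes higher in HN that did not pass in LN, where their libraries at dawn and dusk overlapped. The difference between the nitrogen levels in this contrast was not tested for itself; the test of the whole daily course is given below.

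The small heat shock proteins differed in the time of their highest level. Spo16568, a 15.4 kDa class V protein, was highest at dusk. In HN it was at 5.89, 5.67 and 2.30 FPKM at dawn, 4.72, 9.59 and 16.1 at midday, 56.3, 55.9 and 33.8 at dusk, and 9.74, 12.7 and 13.2 at midnight. In LN the values were 2.59, 2.08 and 4.72, then 16.5, 10.0 and 9.31, then 41.2, 41.2 and 65.9, and 10.5, 10.3 and 10.2 FPKM in the same order of times. The 6 libraries at dusk were above all others, and the ranges of HN and LN overlapped at each time. Dusk minus dawn was 3.18 ± 0.36 in HN (adjusted p = 2.26e-06) and 3.63 ± 0.36 in LN (adjusted p = 5.61e-07), calls that held in all 32 alternatives run.

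By contrast, the 17.8 kDa class I gene Spo15173 was highest at midday and low again at dusk. In HN it was at 4.11, 1.39 and 1.30 FPKM at dawn, 13.6, 5.95 and 5.25 at midday, 2.15, 0.694 and 1.18 at dusk, and 0, 0.254 and 0.0830 at midnight. In LN it was at 5.26, 1.82 and 9.25 FPKM at dawn, 33.0, 14.7 and 6.23 at midday, 3.21, 1.67 and 1.53 at dusk, and 0.0950, 0.619 and 0.310 at midnight. Midday minus midnight was 2.96 ± 0.50 in HN (adjusted p = 0.000402) and 3.56 ± 0.50 in LN (adjusted p = 0.000185). It lies on chromosome 1 in a stretch from 27170183 to 27314697 with 5 small heat shock protein genes by name, of which 3 reached the level for testing. Its neighbour Spo15195, an 18.3 kDa class I gene, had the same highest time, at 6.31, 9.85 and 0.192 FPKM in HN and 17.7, 7.52 and 10.9 in LN at midday. There 1 HN library lay within the range of midnight, at 0, 0 and 0.251 FPKM.

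The 17.9 kDa class II gene Spo19421 was at 0 in the 3 HN libraries of midnight and in 2 of the 3 LN libraries. At midday it was at 4.56, 9.61 and 0.656 FPKM in HN and at 14.8, 13.7 and 13.1 in LN. The LN values lay close together and above all HN values, although the nitrogen difference at that time did not pass the test. The difference from midnight passed in HN at 2.20 ± 0.67 (adjusted p = 0.0221) and in LN at 3.77 ± 0.67 (adjusted p = 0.00184). The HN call was lost in 6 of 31 alternatives, among them leaving out either of the 2 higher HN libraries of midday (adjusted p 0.078 and 0.13).

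**Figure D3:**
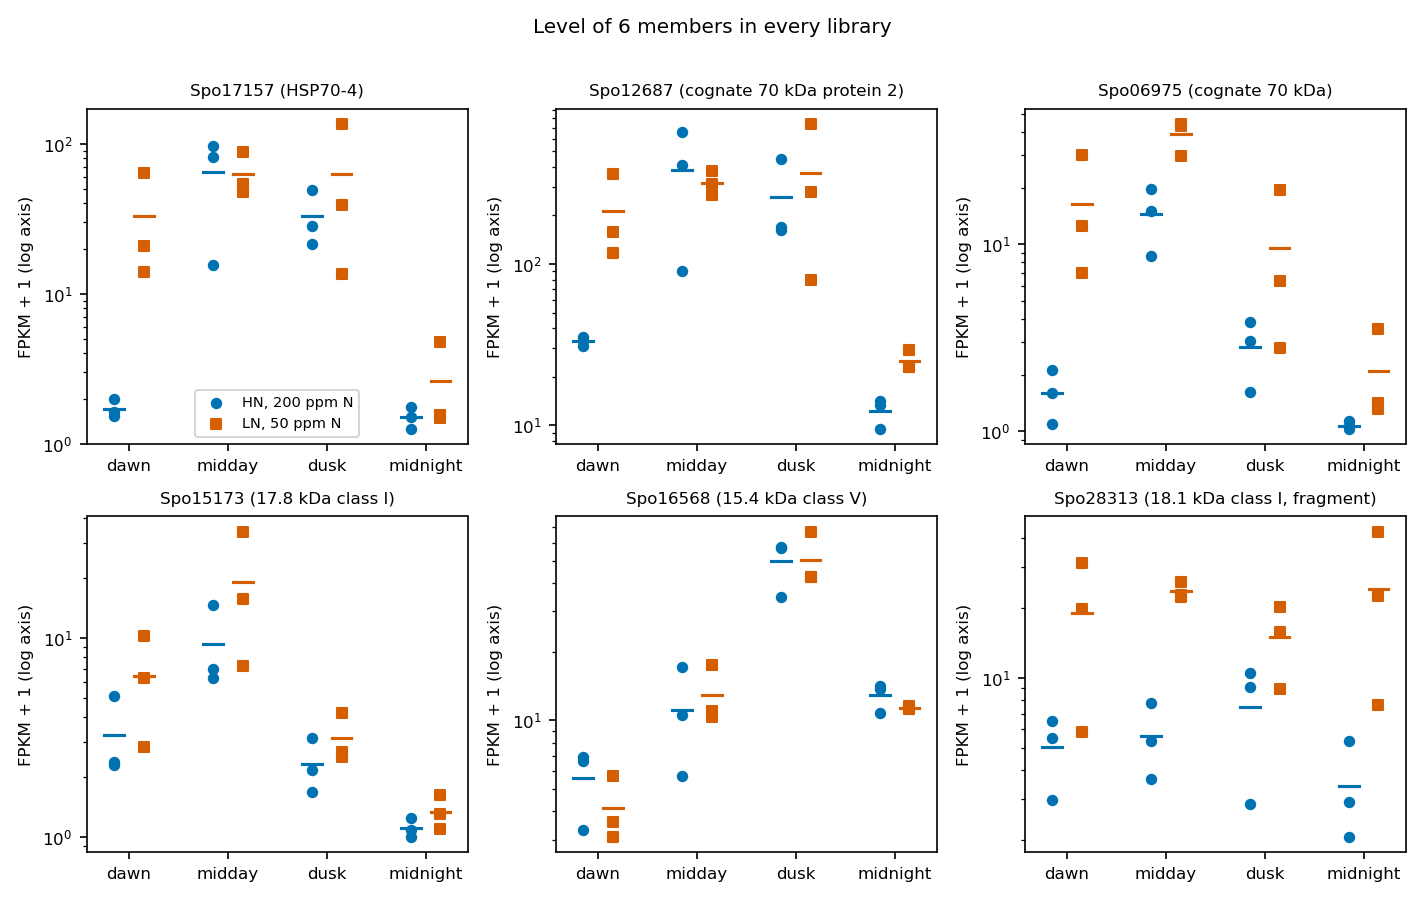
Level of 6 heat shock protein genes in every library, as FPKM + 1 on a log axis, by time of day, with HN as blue circles, LN as orange squares and short lines for the mean of 3 libraries. Spo17157, Spo12687 and Spo06975 are high in LN and low in HN at dawn, Spo16568 is highest at dusk at both nitrogen levels, and the LN mean of Spo28313 is above the HN mean at each time.

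In some groups 1 library was the highest or the lowest for most heat shock protein genes. LN dawn replicate 3 was the highest of its group for 61.7% of the 47 genes, against 32.8% of all genes tested. HN midday replicate 3 was the lowest of its group for 61.7%, against 34.7% of all genes, and LN dusk replicate 1 the highest for 55.3%, against 34.1%. Counts that rest on these groups moved with them. Without HN midday replicate 1, or without replicate 2, 7 of the 47 genes passed for midday against midnight in HN, in place of 13. The counts over all genes in those fits are not given here.

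Averaged over the 4 times, more heat shock protein genes were higher than lower at low nitrogen, and most of those were small ones. In all, 13 of the 47 were higher in LN, or 27.7% against a background of 7.92%, and 2 were lower against a background of 8.62%, with 16.5% of all genes passing in either direction. With a common sum of FPKM the split was 13 higher and none lower. Of the 19 small genes 8 were higher, of the 21 in the 70 kDa class 3, and of the 6 in the 90 kDa class 2. The 8 small genes include Spo08947, which reached 1 FPKM in 4 libraries, all of them LN. It therefore entered the test through the nitrogen level at which it was high. Among the 47, Spo15196 and Spo17870 also reached the level for testing only through LN libraries. In HN, Spo15196 reached 1 FPKM only in midday replicate 1, at 2.07 FPKM. Spo17870 did so only in dusk replicates 1 and 2, at 2.19 and 1.06 FPKM. The median difference of the 47 genes was 0.24, and 39 were positive.

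The largest averaged difference was in Spo28313, similar to a fragment of an 18.1 kDa class I protein of alfalfa. In HN its libraries were at 1.99, 5.54 and 4.52 FPKM at dawn, 4.33, 6.76 and 2.69 at midday, 9.48, 1.86 and 8.14 at dusk, and 1.93, 4.33 and 1.06 at midnight. In LN they were at 18.9, 4.87 and 30.1 FPKM at dawn, 21.8, 24.9 and 21.2 at midday, 14.7, 19.1 and 7.94 at dusk, and 6.64, 21.5 and 41.5 at midnight. The ranges were apart at midday and at midnight and overlapped at the other times. The difference was 1.89 ± 0.31 (adjusted p = 0.00126) in limma's test and passed in all 31 alternatives, and the gene did not pass the test of a daily course at either nitrogen level.

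Spo06975 was also higher on average in LN, by 1.71 ± 0.29 (adjusted p = 0.00141), and so were the organelle chaperones Spo09626 (0.66 ± 0.17, adjusted p = 0.0149) and Spo30005 (0.60 ± 0.14, adjusted p = 0.00859). The 18.0 kDa class I gene Spo28200, the second most abundant small member, was higher by 0.51 ± 0.13 (adjusted p = 0.0147), at 34.0 ± 3.54 FPKM in HN and 62.3 ± 15.3 in LN at dawn. The 21.7 kDa class VI gene Spo27348 was at 2.17 to 12.5 FPKM in HN and 4.14 to 25.1 in LN, a difference of 0.87 ± 0.26 (adjusted p = 0.0292) that was lost in 8 of 31 alternatives, each of them a library left out. The most abundant small gene, Spo10954 of class I at 18.1 kDa, had overlapping ranges of 68.6 to 214 FPKM in HN and 60.7 to 232 in LN and did not pass. The 2 genes that were lower were Spo01413 at -0.45 ± 0.14 (adjusted p = 0.0336, lost in 10 of 31 alternatives) and Spo18983 at -0.30 ± 0.10 (adjusted p = 0.0460). Spo18983 carries a small heat shock protein name but a palmitoyltransferase domain in the table, and its call was lost in 20 of 30 alternatives.

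At dawn, some 70 kDa and small chaperone genes were higher in low-nitrogen leaves. The largest differences were in Spo17157 and Spo06975, whose means were below 1 FPKM in high-nitrogen leaves at that time. Of the 47 genes 9 were higher in LN, or 19.1% against a background of 5.1%, and 2 were lower against a background of 4.86%, with 9.97% of all genes passing in either direction. With a common sum of FPKM the split was 9 higher and none lower. The median difference was 0.56. The 9 comprised 6 of the 21 genes of the 70 kDa class and 3 of the 19 small ones. They include Spo17870, which reached the level for testing only through LN libraries. Of the 9, 5 were also higher at midday than at midnight, an overlap that was not counted over all genes. The difference for Spo17157 was 3.96 ± 0.73 (adjusted p = 0.00319), from a mean of 0.715 ± 0.231 FPKM in HN to 31.9 ± 27.2 in LN. For Spo06975 it was 3.16 ± 0.58 (adjusted p = 0.00306), from 0.600 ± 0.510 to 15.5 ± 11.98 FPKM.

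The chloroplast small heat shock protein gene Spo12147, on chromosome 6, was the third gene whose call at dawn held throughout. Its libraries were at 0.717, 0.711 and 1.17 FPKM in HN and 5.68, 3.197 and 4.58 in LN, a difference of 1.54 ± 0.27 (adjusted p = 0.00247). In LN it was highest at this time, while in HN it was highest at midday, at 3.14, 4.79 and 1.62 FPKM. Spo12687 was 6.58-fold higher in LN by its means, a difference of 2.51 ± 0.67 (adjusted p = 0.0229) with no overlap, and its call was lost without any 1 of the 3 HN libraries or without LN replicate 3. The abundant Spo12685 was at 858, 613 and 650 FPKM in HN and 1227, 1475 and 1492 in LN. Its difference of 0.99 ± 0.31 had an adjusted p of 0.0495 and was lost in 25 of 33 alternatives, among them the replicate number as a block for the dawn libraries (adjusted p = 0.0585). Counted without LN replicate 3, or without HN replicate 1, 3 of the 47 genes passed at dawn in place of 11, and they were Spo17157, Spo06975 and Spo12147. Over all genes 389 and 676 passed in those fits, in place of 1805.

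Values of some other markers differed at dawn as well, and their part in these differences was not tested. The summed epidermis markers were at 53.7 to 70.3 FPKM in HN and 122 to 151 in LN, with 1 of 5 tested genes higher and with 1 of the 3-ketoacyl-CoA synthase 6 genes and ECERIFERUM 2 at 0 in all libraries. The 16 chlorophyll a-b binding genes summed to 37040 to 48620 FPKM in HN and 18210 to 36360 in LN, and none passed. Of 5 genes for the Rubisco small subunit, 1 was lower in LN. The summed guard cell, phloem, xylem, root and dividing cell markers overlapped between HN and LN at dawn, and none of their tested genes passed. Changes in the share of a cell type and in transcript per cell cannot be told apart in whole leaves.

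**Figure D4:**
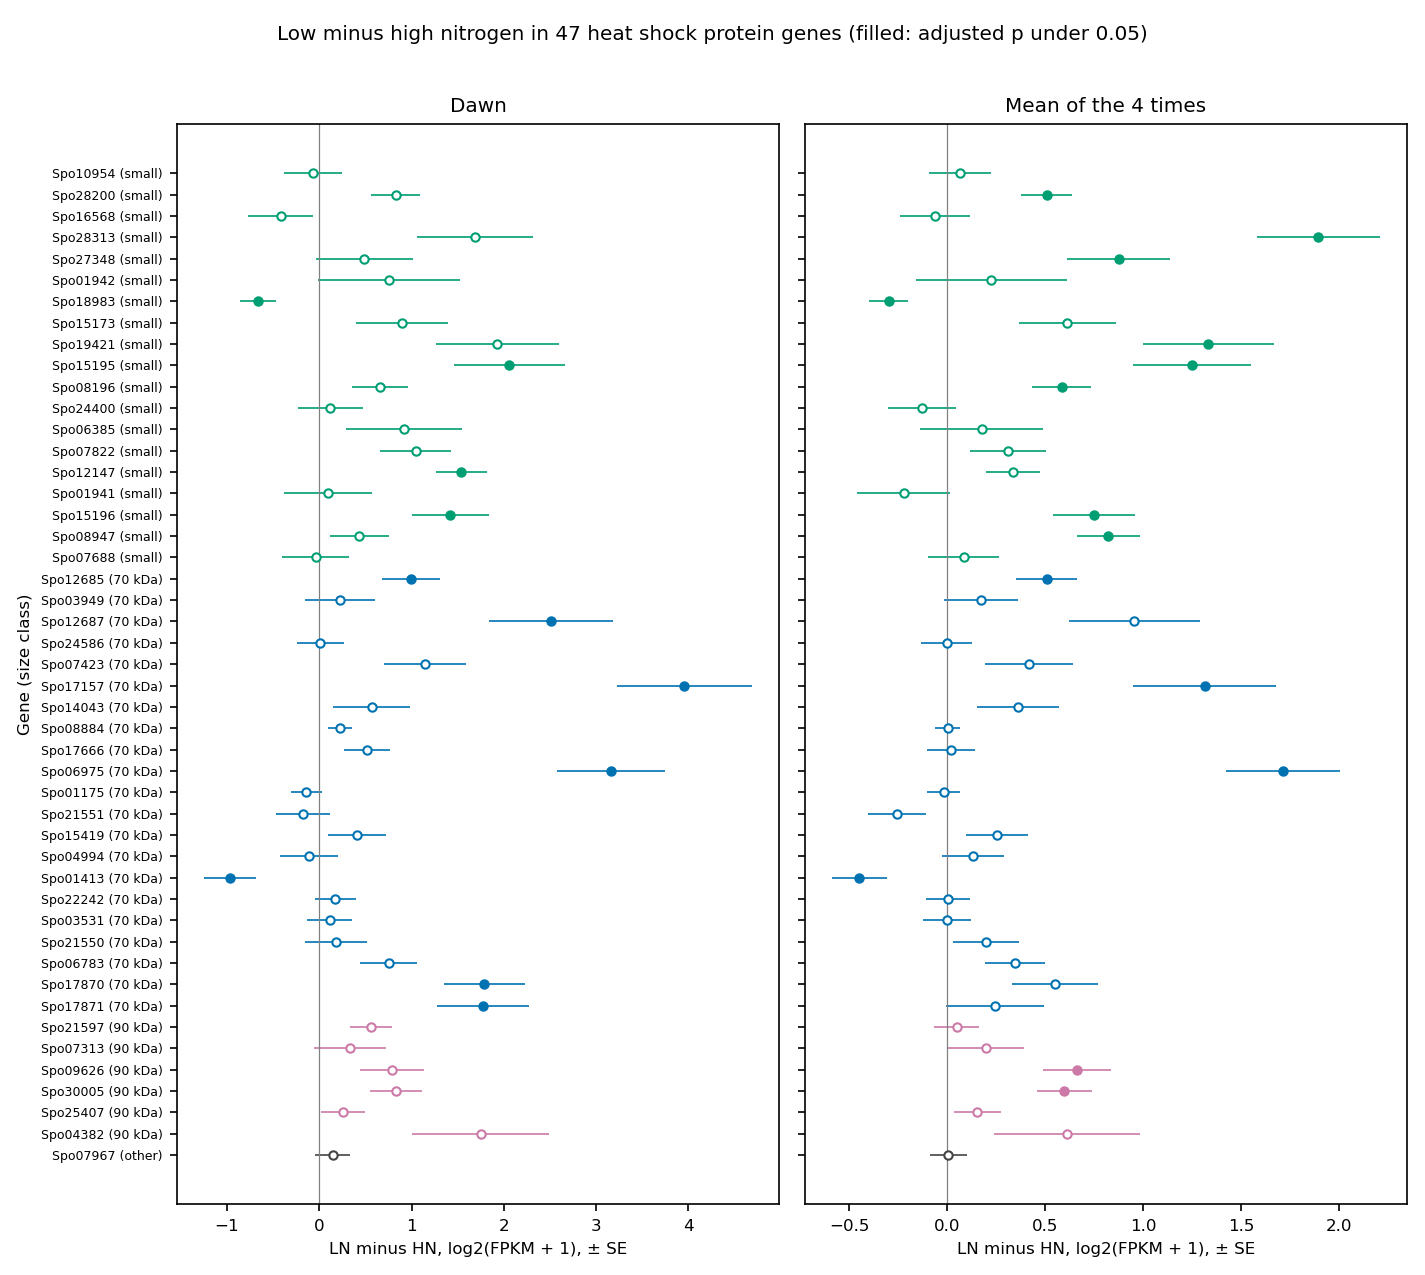
Low minus high nitrogen in log2(FPKM + 1) with its standard error for each of the 47 heat shock protein genes, at dawn (left) and averaged over the 4 times (right), with filled points for genes that passed the test and colours for size class. At dawn Spo17157 at 3.96 and Spo06975 at 3.16 lie farthest to the right, and in the average Spo28313 leads at 1.89.

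At the other times few nitrogen differences passed. At midday 1 heat shock protein gene passed, against a background of 0.00552%, and it was the only gene of the 18110 to do so. This was Spo08947, similar to the chloroplast small heat shock protein HSP21 of pea, on chromosome 5 at 16470435 to 16471739. It was at 0.406, 0.407 and 0.269 FPKM in HN and 10.2, 4.67 and 3.19 in LN at midday, and at 0 in the 3 HN libraries of dawn. The gene reached 1 FPKM in 4 libraries, the 3 of LN midday and LN dusk replicate 3, so that it entered the test through the group in which it was high. The difference of 2.24 ± 0.32 (adjusted p = 0.0169) was lost in 7 of 31 alternatives, among them a pseudocount of 0.1 (adjusted p = 0.32) and voom (adjusted p = 0.37). At dusk and at midnight 0 of the 47 passed in limma and with voom, against backgrounds of 0.00552% and 0.37%. An unadjusted p under 0.05 was found for 5 of the 47 at each of these times. Over all 18110 genes it was found for 1340 at dusk and 3196 at midnight. In the test of a daily course that differs between nitrogen levels, 0 of the 47 passed in limma and with voom, against a background of 0.0828%. An unadjusted p under 0.05 was found there for 6 of the 47 and for 1964 of all 18110 genes. The smallest adjusted p values of that test were 0.0993 for Spo12147 and 0.102 for Spo08947.

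Many 70 kDa genes lie together on chromosome 2 and are almost silent. Between 54737824 and 55126792 the table lists 48 genes, of which 22 are 70 kDa heat shock genes by name. Of these, 13 were at 0 in all libraries, 5 were above 0 but untested, and 4 were tested. In the tested genes Spo17870 and Spo17871 transcripts were highest in LN at dawn, at 2.87, 2.73 and 10.6 FPKM and at 1.99, 1.45 and 12.6 FPKM, and Spo17871 rested on 122 fragments over all 24 libraries. In HN at that time they were at 0.386, 0.557 and 0.884 FPKM and at 0, 0.376 and 0.810 FPKM. The differences were 1.79 ± 0.44 (adjusted p = 0.0156) and 1.77 ± 0.50 (adjusted p = 0.0300), and both were lost without LN replicate 3, at adjusted p values of 0.12 and 0.21. In HN, Spo17870 reached 1 FPKM only in dusk replicates 1 and 2, at 2.19 and 1.06 FPKM. It therefore entered the test through LN, the nitrogen level at which it was high. The other tested genes of the stretch, Spo21550 and Spo21551, passed no nitrogen test, at 0.327 to 5.35 and 5.13 to 16.1 FPKM. No source used here says how fragments that match several of these similar genes were assigned, so values of single copies are uncertain.

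The genes around the chaperones were counted by lists of protein names. Heat stress factors bind the promoters of heat shock protein genes, where class A members activate and class B members are known mainly as repressors. Of 14 tested factors, 6 were higher in LN at dawn and none was lower, against backgrounds of 5.1% and 4.86%. HSF30 (Spo06105) was at 17.02, 30.4 and 16.1 FPKM in HN and 85.1, 110 and 179 in LN at that time, a difference of 2.49 ± 0.39 (adjusted p = 0.00106). The factor B-2a (Spo12958) was at 0.980, 0.939 and 0.903 FPKM in HN and 8.40, 9.13 and 18.8 in LN, a difference of 2.67 ± 0.36 (adjusted p = 0.000341). The ranges of both were apart, and in both LN replicate 3 was the highest, as in most of the chaperone genes. At midday none of the 14 passed for nitrogen.

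Partners of the chaperones moved in both directions. Of 19 tested co-chaperones, 7 were higher at midday than at midnight in HN and 4 were lower, against backgrounds of 12.5% and 11.1%. For LN the numbers were 3 and 2, against 4.32% and 3.34%. The 90 kDa partner p23-1 (Spo06911) rose at both nitrogen levels, by 1.34 ± 0.18 in HN (adjusted p = 7.45e-05) and 2.44 ± 0.18 in LN (adjusted p = 5.51e-08). The exchange factor gene fes1 (Spo09421) was higher in LN at dawn, at a mean of 13.8 FPKM in HN and 27.4 in LN (difference 0.94 ± 0.22, adjusted p = 0.0143). Of 7 tested Clp ATPases, some of which pull aggregated proteins apart, 2 were higher in LN at dawn, against a background of 5.1%. A ClpB1 gene (Spo05257) was at a mean of 3.42 FPKM in HN and 11.3 in LN (difference 1.37 ± 0.29, adjusted p = 0.00736).

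Other folding genes were counted in the same contrasts, for which 15.7% of all genes were higher and 17.1% lower at dusk than at dawn in HN, and 9.97% passed for nitrogen at dawn. Of 18 tested genes named for endoplasmic reticulum folding, 10 were higher and 1 lower at dusk than at dawn in HN, and 1 passed for nitrogen at dawn. A luminal-binding protein gene (Spo02516) went from a mean of 24.5 to 111 FPKM in HN (difference 2.08 ± 0.36, adjusted p = 0.000243). Of 35 tested chaperonins, which fold proteins in a closed ring, 9 were higher and 1 lower in that contrast, and 1 passed for nitrogen at dawn, where it was lower. Of 67 tested J-domain proteins 12 were higher and 17 lower, and at dawn 6 were higher and 5 lower in LN. A list of other heat-induced genes held 4 by name, of which 2 were tested. At dusk against dawn 1 of them was lower in HN and 2 were lower in LN, where the background was 13.8%. None was higher. Midday against midnight passed in neither, with a median difference of -1.25 in HN and -0.11 in LN, and neither passed for nitrogen at dawn.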

How the data were processed

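The authors deposited FPKM values per gene, with the gene length beside them, per the file headers, from poly-A RNA of 24 leaf libraries made with dUTP for strand, per the labels' protocols. Per the submitters' processing notes, the tools were HISAT2, RSEM and DESeq2 (1.20.0), without a statement of what each did, and no source used here names the genome build. Whole fragments were recovered for 100% of values (tolerance 0.01) from the steps of FPKM multiplied by gene length. The table holds 25494 genes and 1 blank line. None of its IDs matched the reference gene table (0 matches), and no sequence is printed.

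Genes at 1 FPKM or more in at least 3 libraries (18110) were fitted on log2(FPKM + 1) with limma (version 3.58.1, R 4.3.3), using 8 group means, trended variances and 16 residual degrees of freedom. Adjusted p values are Benjamini-Hochberg over all tested genes. The fit was checked on simulated data. The labels give 3 independent plants per group. Same-number deviations correlated at a median of -0.05 over 28 pairs of groups, from -0.45 to 0.46, so that replicate numbers did not pair libraries over the whole design. HN and LN at dawn had the highest mean correlation of the 28 pairs, 0.232, with all 3 between 0.136 and 0.414. All 3 were also positive in some other pairs, among them midday and midnight in HN (0.0742 to 0.223) and in LN (0.0492 to 0.295). A block for the dawn libraries was added after seeing the data. No 2 replicates agreed within sampling noise (lowest chi-square per degree of freedom 25.5).

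The members and lists were chosen with earlier results of these data known. The rule named the most abundant gene per class, those with the smallest adjusted p of the daily course and those called lower in light. It also took up to 4 genes per nitrogen test and every member of a class of 5 or fewer. Values in every library were planned for all of these but are printed for only some. Spo12685 has them only at dawn, Spo21597 and Spo10954 have ranges, and Spo07967 has means. Others are given at some times or by range or mean. Spo15173, Spo19421, Spo15195, Spo04382, Spo07423, Spo17666, Spo07313, Spo18983, Spo03949, Spo17871, Spo21550 and Spo21551 were added after their values were seen. The closing section gives the alternatives tried: no filter, a filter at a mean of 5 FPKM, a pseudocount of 0.1, a common sum of FPKM, voom, a replicate block, the compared groups alone, 3 libraries left out together, and each library left out.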

Additional observations from a re-analysis of the deposited data

How the results depend on the processing

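None of the 45 named differences changed sign in 1428 recomputed values, and 1305 of these stayed past the threshold. Of 383 recomputed counts of genes that passed, 351 were within 1.5 times of the reported count. With a filter at a mean of 5 FPKM, which keeps 27 of the 47 genes in the fit, the counts were 9 for the daily course in LN, 8 and 4 for midday against midnight in HN and LN, 5 for dusk against dawn in LN, 9 for averaged nitrogen, 6 for nitrogen at dawn and 0 at midday. Fitting the compared groups alone gave 2 for dusk against dawn in LN, 4 for nitrogen at dawn and 0 at midday. Voom gave 6 and 0 for those nitrogen tests, and a pseudocount of 0.1 gave 0 at midday. Leaving out together the 3 libraries farthest from their groups (LN dusk replicate 3, LN midnight replicate 3 and LN dawn replicate 2) gave 18 genes for nitrogen at dawn, among them the 11 reported, 1 at dusk (Spo06975) and 3 for a daily course that differed between nitrogen levels (Spo08947, Spo12147 and Spo17157). Beyond fewer genes or libraries in the fit, the cause was not tested. Counts over all genes in the refits of this section are not given. The refit counts therefore show how those of the 47 moved, and not whether the 47 differ from other genes.

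Leaving out 1 library at a time gave 14 to 21 genes for the daily course in HN and 13 to 18 in LN, 7 to 15 and 7 to 10 for midday against midnight in HN and LN, and 10 to 16 and 7 to 9 for dusk against dawn. For nitrogen it gave 11 to 16 on average, 3 to 15 at dawn, 0 to 1 at midday, 0 at dusk, 0 to 1 at midnight, and 0 to 1 for the differing course. Same-number libraries were most alike between HN and LN at dawn. The replicate number was also used as a block over all libraries. The counts were then 17 and 18 for the daily course, 12 and 9 for midday against midnight, and 15 and 8 for dusk against dawn (HN first in each). For nitrogen they were 14 on average, 11 at dawn and 1 at midday, and each of the other tests gave 0. A block for the 6 dawn libraries alone, added after seeing the data, also gave 11 at dawn, 10 of them the reported genes, without Spo12685 and with Spo28200. For genes with a few fragments per library at midnight, depth limits what a test can show there.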
